A study of Mus musculus with 2 samples.

Results

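The Reelin pathway genes Reln, Vldlr, Lrp8, Dab1 and Fyn held 144 of the 79355 m6A sites listed for the mouse cerebellum and 346 of the 188295 sites listed for the cerebrum. These 5 genes were chosen by name, and a site was counted for a gene where its position lay inside the gene's GENCODE M21 interval (GRCm38) on the gene's strand. Together the 2 lists held 414 different positions in these genes, of 219409 different positions in all. The sites came from GLORI, in which glyoxal and nitrite deaminate unmethylated adenosines, so that these are read as G and N6-methyladenosine (m6A) is still read as A.

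The poly(A)+ RNA came from the cerebellum and from the cerebrum, taken per the study's methods from a newborn (P0) female. Both samples were F1r hybrid, with a C57 mother and a PWK father, and both were treated (GLORI+). There was 1 library per tissue, and whole tissues were used. No difference between the tissues was tested, and each one described here is a difference between 2 libraries. The lists hold positions with 0 read counts and 0 methylation rates, so the depth is unknown. The study kept as high-confidence the GLORI sites that overlapped peaks of antibody-based m6A-seq, and this filter was not applied here. Whether each listed position is m6A was not tested. A position that is missing from a list may lack m6A, may lie in RNA that was scarce in that tissue, or may have had too few reads. Fewer cells of a type and less RNA per cell cannot be told apart in such samples.

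Reelin is a large glycoprotein secreted by Cajal-Retzius cells at the surface of the developing cortex and by granule cells of the developing cerebellum. It binds VLDLR and APOER2, the product of Lrp8, on migrating neurons. Receptor binding leads Src family kinases, FYN among them, to phosphorylate the intracellular adaptor DAB1, which is then degraded through a ubiquitin ligase that contains CUL5 and SOCS proteins. Mice that lack Reelin, DAB1 or both receptors have inverted cortical layers and a small, unfoliated cerebellum. m6A is deposited on nascent mRNA by the METTL3-METTL14 complex, mostly at adenosines in the DRACH motif (D is A, G or T, R is A or G and H is A, C or T) and mostly in long exons and near stop codons.

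The sequences below show, for each gene, the exonic DRACH site in both libraries that lay nearest to the stop codon. They were read from GRCm38, 5′ to 3′ on the gene's strand, and the capitals mark the DRACH 5-mer, whose central A is the listed position. In Reln the site was 508 nt past the stop codon, in Vldlr 301 nt, in Lrp8 232 nt and in Dab1 160 nt, while in Fyn it was 50 nt before the end of the coding sequence.
Reln, chr5:21884955-21884975, minus strand: ttgctgctGGACTttgaccta
Vldlr, chr19:27249431-27249451, plus strand: ccagcaatGAACCttgtgcta
Lrp8, chr4:107872533-107872553, plus strand: gttatgatGAACTgcaaacat
Dab1, chr4:104741647-104741667, plus strand: ccacagaaAAACTcacagtcg
Fyn, chr10:39563913-39563933, plus strand: ttcctggaGGACTactttacg

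The next 3 sequences show closely spaced sites in the 3′ UTRs of the adaptor, of a receptor and of the ligand. Here each capital A is a listed position, in either library, that lay in DRACH.
Dab1, chr4:104741741-104741770, plus strand: acaaaaaAcaaAcaaaAcaaaAcacaacaa
Lrp8, chr4:107874163-107874192, plus strand: aagttgAcataActgaaatctgAcatttga
Reln, chr5:21885353-21885382, minus strand: aagatgaaggActtggcgaAcagaaagccc
In Dab1, 4 adenosines of an AAACA repeat were listed, 251 to 265 nt past the stop codon, 1 of them in both libraries and 3 in the cerebrum. In Lrp8, 3 adenosines were listed in both libraries, 1858 to 1874 nt past the stop codon. In Reln, 2 adenosines, 101 and 110 nt past the stop codon, were listed in the cerebrum and not in the cerebellum.

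The tissue labels were compared with marker genes. All 12 forebrain markers had a site in the cerebrum and 5 did in the cerebellum, and Tbr1 had 16 exonic DRACH sites in the cerebrum and 0 in the cerebellum. Of 12 cerebellar or hindbrain markers, 7 had a site in the cerebellum and 6 in the cerebrum. By exonic DRACH sites, 4 of the 12 had more in the cerebellum, 2 had more in the cerebrum and 6 had equal numbers. En1, En2 and Barhl1 had 5, 8 and 11 such sites in the cerebellum and none in the cerebrum, and Rora had 17 and 12. Zic4 went the other way, with 4 and 15, as did Gbx2, with 1 and 2, while Atoh1, Skor2, Pax2 and Pcp2 had no site in either. Of 8 Cajal-Retzius markers, Reln itself among them, 7 had a site in each library. By exonic DRACH sites, 4 of the 8 had more in the cerebrum and 4 had more in the cerebellum. Trp73 had 0 in the cerebellum and 3 in the cerebrum, Calb2 0 and 1, Cacna2d2 3 and 4, and Reln 1 and 3. Lhx1 had 11 and 1, Nhlh2 5 and 3, Ebf2 4 and 0, and Lhx5 1 and 0. Of 5 blood and vessel markers, 2 had a site in the cerebrum and 1 in the cerebellum. The cerebrum list was 2.37 times as long as that of the cerebellum, and 1.72 times for exonic DRACH sites of coding genes (77892 and 45260). What part of a difference in counts between the libraries lay in expression or depth was not tested.

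The number and the kind of sites differed widely among the 5 genes. Dab1 held 70 of the 144 sites of the cerebellum list (48.6%) and 206 of the 346 on the list of the cerebrum (59.5%), most of them in its introns and outside DRACH. Lrp8 held 43 and 56 sites, Fyn 15 and 27, Vldlr 10 and 24, and Reln 6 and 33. The order changed when exonic DRACH sites alone were counted. Then Lrp8 held 33 in the cerebellum and 31 in the cerebrum, Dab1 17 and 22, Fyn 11 and 9, Vldlr 8 and 16, and Reln 1 and 3. Each member thus had at least 1 such site in each library. This was so for 35.9% of 20713 coding genes in the cerebellum and for 46.2% in the cerebrum, whether or not these were expressed in the brain. Vldlr, Reln and Dab1 had more exonic DRACH sites in the cerebrum and Lrp8 and Fyn had more in the cerebellum, that is 3 of 5 genes with more in the cerebrum, where 81.5% of all coding genes with such a site had more there. In the 5 intervals, 0 sites lay on the opposite strand.

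**Figure D1:**
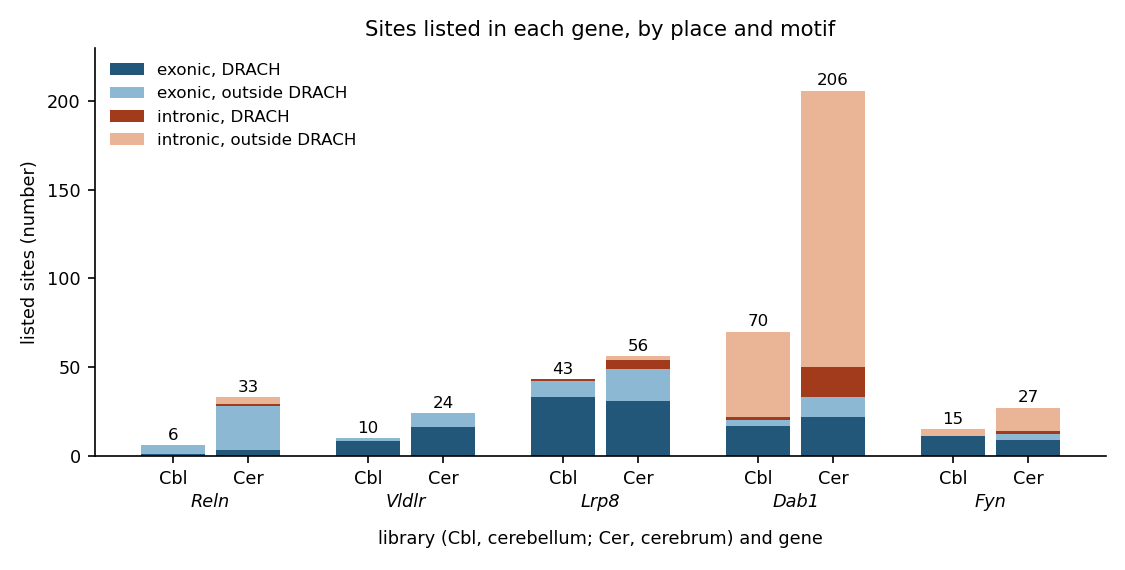
Number of listed sites (y axis) in each gene and library (x axis, Cbl for cerebellum and Cer for cerebrum), stacked by whether the site lay on an annotated exon and in DRACH. Totals stand above the bars. Intronic sites outside DRACH make up most of the Dab1 bars, 48 of 70 and 156 of 206, and exonic DRACH sites most of the Lrp8 bars.

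Exonic DRACH sites of the cerebellum were largely listed in the cerebrum as well, and intronic sites outside DRACH were not. Of the 70 exonic DRACH sites listed in the cerebellum, 60 were also listed in the cerebrum (85.7%, 95% Wilson interval 75.7 to 92.1), and the share over all coding genes was 83.4%. These intervals cover counting error over sites alone, and neighbouring sites are not independent. In Lrp8, 30 of 33 cerebellum sites of this kind were shared, in Dab1 13 of 17, in Fyn 9 of 11, in Vldlr 7 of 8, and in Reln the single one. Of the 81 exonic DRACH sites of the longer cerebrum list, 60 were shared (74.1%, interval 63.6 to 82.4). These were 30 of 31 in Lrp8, 9 of 9 in Fyn, 13 of 22 in Dab1, 7 of 16 in Vldlr and 1 of 3 in Reln. Over all coding genes, 37747 of 77892 such cerebrum sites were shared, a share below the interval of the members. Lrp8 gave 30 of the 60 shared member sites. Of the 52 intronic sites outside DRACH in the cerebellum, 3 were also listed in the cerebrum (5.77%), where the share over all coding genes was 9.00%. Both shares of the cerebellum sites of the members, 85.7% and 5.77%, lay near those of all coding genes.

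Exonic sites outside DRACH were split by how far their 5-mer was from the motif. Of 72 different sites of this type, 37 differed from DRACH by 1 base, and 11 of these were in both libraries (29.7%, interval 17.5 to 45.8). The other 35 differed by 2 or more bases, and 1 of them was in both libraries (2.86%, interval 0.506 to 14.5). Over all coding genes these shares were 16.6% of 28102 and 5.42% of 33482, the first just below the interval of the members and the second inside it. Lrp8 gave 7 of the 11 shared sites, from 14 that were 1 base from DRACH, and 0 of its 6 sites further from it were shared. Without Lrp8, 4 of 23 sites that were 1 base from DRACH were shared (17.4%, interval 6.98 to 37.1), near the share of all coding genes. In Vldlr a pair of neighbouring adenosines was listed in different libraries, 366 nt past the stop codon in the cerebellum, outside DRACH, and 367 nt past it in the cerebrum, in DRACH.

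Reln, the ligand, had the fewest exonic DRACH sites of the 5 genes although its transcript was the longest. The gene (ENSMUSG00000042453.14, chr5:21884454-22344702, minus strand) spans 460.2 kb, and its isoform Reln-207 has 65 exons and 11699 nt, of which 10386 nt are coding and 1019 nt are 3′ UTR. Its listed exonic DRACH sites lay in the last exon, 1 of them in both libraries and 2 in the cerebrum. None of the 201 DRACH adenosines of its coding sequence was listed in either library. In the 3′ UTR, 1 of 24 was listed in the cerebellum (4.17%) and 3 of 24 in the cerebrum (12.5%, interval 4.34 to 31.0). Over the whole transcript this came to 0.439% in the cerebellum and 1.32% in the cerebrum, whereas 4.22% and 7.20% of 1024796 DRACH adenosines were listed over the coding genes with a site.

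The internal exons of Reln are short, with a median length of 162 nt and a longest one of 274 nt. Of its 201 coding DRACH adenosines, 191 lay under 100 nt from an exon junction. Over the coding genes with a site, 0.698% of coding DRACH adenosines this close to a junction were listed in the cerebellum and 1.47% in the cerebrum, against 10.7% and 18.3% of those at 100 nt or more. At 100 nt or more, Reln had 10 coding DRACH adenosines, of which 0 were listed. The interval of this share, 0 to 27.75%, contained both shares of the coding genes at that distance. Of 104 coding genes with a site and at least as many coding DRACH adenosines as Reln, 22 had none of these listed (21.2%). Among the 72 of them that had a listed DRACH site in the 3′ UTR, 7 had none in the coding sequence (9.72%). They were Cep290, Dmd, Fras1, Hspg2, Lrp2, Prune2 and Reln, and they were named after their values were seen.

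The other exonic sites of Reln were outside DRACH. There were 16 of them in the coding sequence, spread over exons 1 to 60, with 3 in the cerebellum, 14 in the cerebrum and 1 in both, in exon 9. All 16 lay under 100 nt from an exon junction, at 2 to 74 nt. A further 12 lay on exons of Reln transcripts that none of the coding isoforms used here covered, 2 in the cerebellum and 11 in the cerebrum. Reln introns, 436.5 kb in all, had 5 sites in the cerebrum, 1 of them in DRACH, and 0 in the cerebellum.

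**Figure D2:**
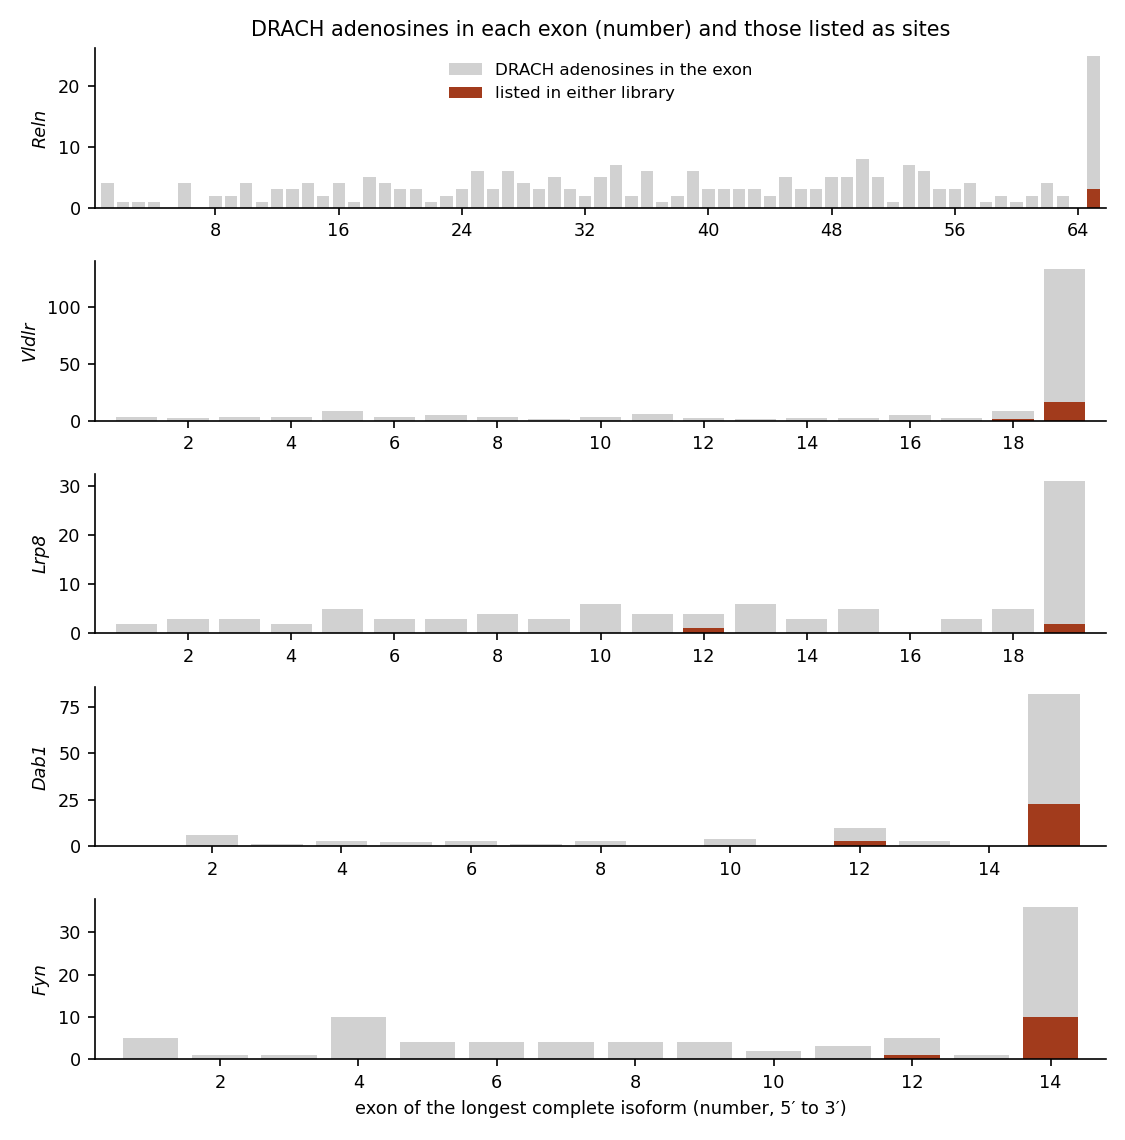
DRACH adenosines in each exon (grey, y axis, number) of the longest complete isoform of each gene, and those listed in either library (red), by exon number (x axis, 5′ to 3′). In Reln the red bar stands in exon 65 alone, with 3 of 25 adenosines, and in Dab1 red stands in exon 12, of 549 nt, and in the last exon. The single listed adenosine of Vldlr exon 18 is barely visible on its scale, and the far 3′ UTR of Lrp8 is not part of the isoform drawn.

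Of the receptors, Vldlr (ENSMUSG00000024924.14, chr19:27216484-27254231, plus strand) had its sites along a long 3′ UTR. Its isoform Vldlr-207 has 19 exons and a 3′ UTR of 5091 nt, in which 8 of 134 DRACH adenosines were listed in the cerebellum (5.97%, interval 3.06 to 11.3) and 15 in the cerebrum (11.2%, interval 6.90 to 17.7). The shares over the 3′ UTRs of all coding genes with a site were 5.15% and 8.55%, each inside its interval. Of 16 different DRACH sites in this 3′ UTR, 7 were in both libraries, 8 in the cerebrum and 1 in the cerebellum. They lay between 301 and 4865 nt past the stop codon, and each of the first 5 kilobases held at least 1 that was shared. In the coding sequence 1 of 60 DRACH adenosines was listed, in the cerebrum, in exon 18 at 131 nt before the end of the coding sequence. Vldlr introns, 27.68 kb in all, had 0 sites in either library.

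Lrp8, which encodes the receptor APOER2, had the most exonic DRACH sites of the 5 genes, and they lay in the far part of its 3′ UTR. The gene (ENSMUSG00000028613.14, chr4:107802261-107876840, plus strand) ranked 118th of 8879 coding genes with a site in the cerebellum and 344th of 12358 in the cerebrum by the number of exonic DRACH sites. Its longest isoform with a complete coding sequence, Lrp8-201, has a 3′ UTR of 1588 nt, in which 2 of 30 DRACH adenosines were listed in each library (6.67%). Past the end of this isoform lies a stretch of 2941 nt (chr4:107873900-107876840) that GENCODE M21 gives as 3′ UTR of Lrp8-202, an isoform annotated without its 5′ end. Of the 43 Lrp8 sites of the cerebellum this stretch held 37, and of the 56 in the cerebrum 41, with 34 in both. In DRACH there were 30 and 29 sites, with 28 in both. Of its 72 DRACH adenosines, 41.7% were listed in the cerebellum (interval 31.0 to 53.2) and 40.3% in the cerebrum (interval 29.7 to 51.8). All 28 RefSeq mRNAs of Lrp8 on GRCm38, 6 of them curated, extended over every listed site of this stretch.

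With Lrp8-202 as the isoform, the 3′ UTR was 4529 nt long. Of its DRACH adenosines, 1 of 19 was listed in each library in the first 1000 nt, 6 of 20 in the second, 12 of 31 in the third, 8 of 20 in the fourth, and 5 and 4 of 12 in the rest. Over all coding genes with a site, on their longest complete isoform, the share went the other way. It went from 13.7% in the first 1000 nt to 3.20% past 4000 nt in the cerebrum, and from 8.27% to 1.93% in the cerebellum. Over the whole 3′ UTR, Lrp8 had 31.4% (interval 23.2 to 40.9) and 30.4% (interval 22.3 to 39.9) of 102 DRACH adenosines listed, against 5.97% and 11.2% of 134 in Vldlr. With Lrp8-202, which was chosen after seeing the data, the intervals of the 2 receptors did not overlap in either library. On the longest complete isoform, 2 of 30 in Lrp8 were listed in each library (6.67%, interval 1.85 to 21.3). This interval overlapped those of Vldlr, 3.06 to 11.3 in the cerebellum and 6.90 to 17.7 in the cerebrum. Such intervals cover counting error over sites alone, and neighbouring sites are not independent, so no difference between the receptors was tested. The densest 200 nt of Lrp8 held 5 DRACH sites, within 72 nt, in both libraries, and the sequence with 3 sites shown above is part of it.

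The coding sequence of Lrp8 had 1 DRACH site, in exon 12 in the cerebellum, of 64 DRACH adenosines. Its introns had 1 site in the cerebellum and 7 in the cerebrum. In the cerebrum 5 were in DRACH, 4 of them in intron 4, of 2.89 kb, and 1 in intron 5, of 0.824 kb. The site in intron 5 was also the intronic site of the cerebellum, and its sequence is shown as the single intronic DRACH site of the 5 genes that was in both libraries, with the 5-mer in capitals.
Lrp8, chr4:107846980-107847000, plus strand: cccttccaGGACTttggctct

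**Figure D3:**
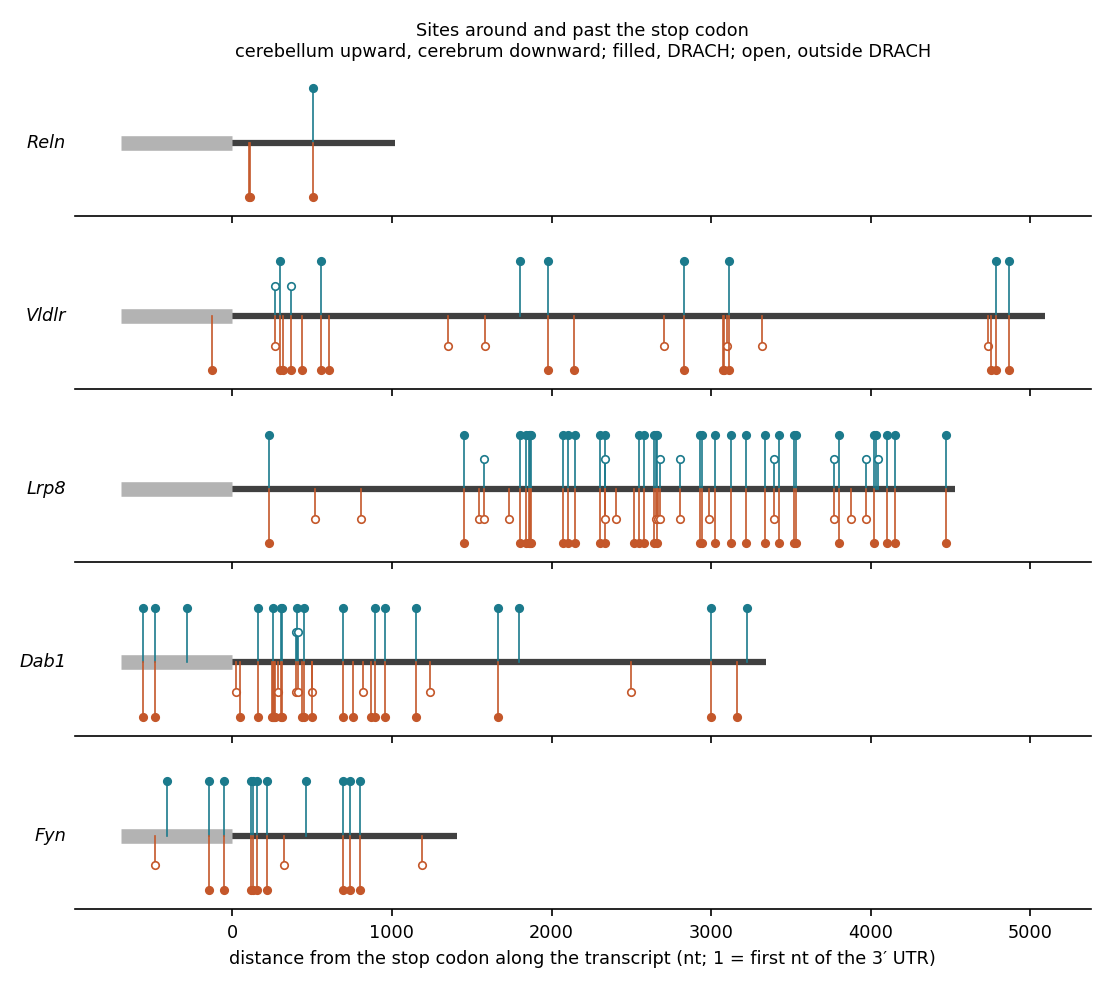
Sites by distance from the stop codon along the transcript (x axis, nt), with cerebellum sites upward and cerebrum sites downward. Filled circles are DRACH sites and open circles, on shorter lines, sites outside DRACH. The grey block is the last 700 nt of coding sequence, sites further upstream are not drawn, and the dark line is the 3′ UTR (Lrp8-202 for Lrp8). Lrp8 sites crowd past 1735 nt, Dab1 and Fyn sites lie mostly in the first 1000 nt, and Vldlr sites are spread over the whole length.

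Dab1, the adaptor that Reelin signalling phosphorylates, had most of its exonic DRACH sites in the first 1000 nt of the 3′ UTR and in its longest internal exon. The gene (ENSMUSG00000028519.16, chr4:103619359-104744844, plus strand) spans 1125.5 kb. Its isoform Dab1-203 has 15 exons, a coding sequence with its stop codon of 1668 nt and a 3′ UTR of 3347 nt. In the first 1000 nt of the 3′ UTR, 9 of 26 DRACH adenosines were listed in the cerebellum (34.6%) and 16 in the cerebrum (61.5%), with 8 in both. The shares over all coding genes were 8.27% and 13.7%. In the second 1000 nt 3 and 2 of 25 were listed, in the third 0 of 17 in either library, and in the rest 2 of 14 in each.

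The densest 200 nt of Dab1 held 5 cerebellum and 8 cerebrum sites in DRACH, and the AAACA repeat shown above was part of it. Over all coding genes, 1.28% of AAACA adenosines were listed in the cerebellum and 2.22% in the cerebrum. The coding DRACH sites of Dab1 lay in exon 12, of 549 nt, where 3 of 10 DRACH adenosines were listed in the cerebellum and 2 in the cerebrum. Over all coding genes with a site, 11.8% and 19.2% of DRACH adenosines were listed in internal exons of 400 nt or more. Both lay inside the intervals of exon 12, which were 10.8 to 60.3% in the cerebellum and 5.67 to 51.0% in the cerebrum. The other internal exons of Dab1 are all shorter than 400 nt, and 0 of their 26 DRACH adenosines were listed. Outside DRACH, exon 4 had 1 site in each library, at different positions, and exons of other Dab1 transcripts had 2 in the cerebrum. The exon 12 site farthest from a junction, in both libraries and 485 nt before the end of the coding sequence, is shown with its 5-mer in capitals.
Dab1, chr4:104727838-104727858, plus strand: ggcacgaaTGACTctgccagg

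In the introns of Dab1, 50 sites were listed for the cerebellum and 173 for the cerebrum, 90.9% and 86.5% of all intronic sites of the 5 genes. Of these 48 and 156 lay outside DRACH, which ranked Dab1 43rd of 8879 coding genes with a site in the cerebellum and 36th of 12358 in the cerebrum. The introns are 1117.6 kb long, so that 4.47 sites were listed per 100 kb in the cerebellum and 15.5 in the cerebrum. Fyn introns, of 192.2 kb, had 2.08 and 7.81 per 100 kb, and Lrp8 introns, of 64.07 kb, had 1.56 and 10.9. Reln introns had 0 and 1.15, and Vldlr introns had 0 in each library. The ranks are by number of sites, and the density was not compared over all coding genes. Sites were found in each of 4 equal lengths of the Dab1 gene, with 19, 8, 12 and 11 in the cerebellum and 62, 28, 32 and 51 in the cerebrum, from 5′ to 3′. Just 3 intronic Dab1 sites, all outside DRACH, were in both libraries, and 0 of the 2 and 17 intronic DRACH sites were. In the cerebellum 14 of the 50 sites lay in pairs 6 nt apart, and in the cerebrum 16 of 173 did. Of the intronic sites outside DRACH, 21 of 48 in the cerebellum (43.8%) and 31 of 156 in the cerebrum (19.9%) were the A of ATC. Of the sites in these pairs, 11 of 14 and 10 of 16 were. In the cerebrum, intronic sites outside DRACH were the A of ATC for 3 of 13 in Fyn, 2 of 4 in Reln and 0 of 2 in Lrp8. Neither the ATC share nor the pairs were counted over all coding genes, so whether they are particular to Dab1 is unknown. What gave rise to the intronic sites was not tested.

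Fyn encodes the Src family kinase that phosphorylates DAB1, and its exonic DRACH sites were nearly all in the last exon. The gene (ENSMUSG00000019843.14, chr10:39368855-39565381, plus strand) has the isoform Fyn-201 with 14 exons, of which the last has 1618 nt. In that exon 10 of 36 DRACH adenosines were listed in the cerebellum (27.8%) and 9 in the cerebrum (25.0%), and the 9 were in both libraries. Over all coding genes with a site, 5.58% and 9.47% of last-exon DRACH adenosines were listed. In both libraries, GGACT sites lay 146 and 50 nt before the end of the coding sequence, the latter shown above. Of 8 DRACH sites in the 3′ UTR, 7 were in both libraries, from 117 to 799 nt past the stop codon, and 1, at 460 nt, was in the cerebellum. The remaining exonic DRACH site lay in exon 12, in the cerebellum. The introns of Fyn had 4 cerebellum and 15 cerebrum sites, with 0 in both, and 2 of those in the cerebrum lay in DRACH, both GAACT in intron 3.

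**Figure D4:**
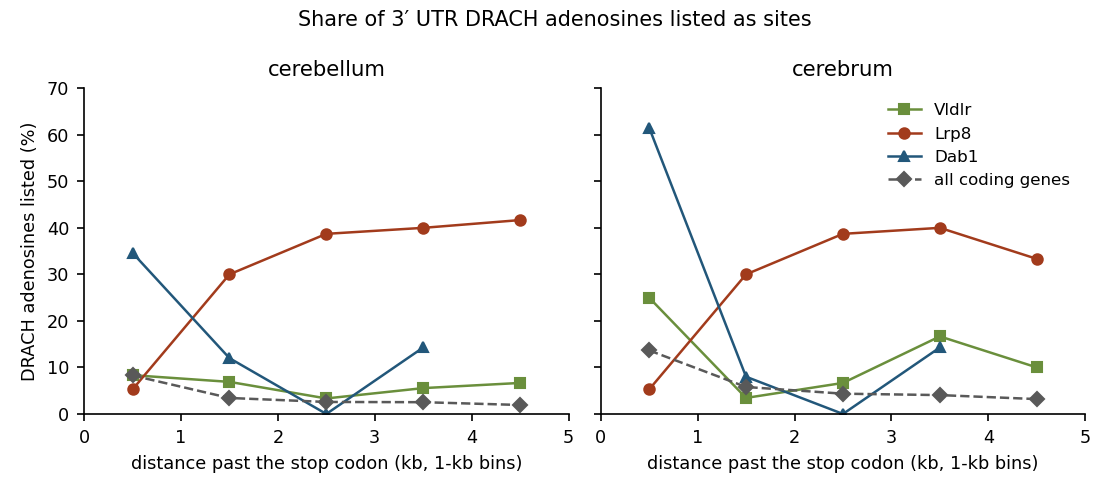
Share of the DRACH adenosines of the 3′ UTR that were listed (y axis, %), in bins of 1000 nt past the stop codon (x axis, kb), for each library. Bins with at least 10 DRACH adenosines are drawn, and the last point of all coding genes (dashed) takes in everything past 4000 nt. Of the genes drawn, Dab1 is highest in the first bin, at 34.6% and 61.5%, and the Lrp8 line starts at 5.26% in both libraries and is at 30% or more in each later bin. Reln and Fyn, with a single bin of this size each, are not drawn.

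Across the 5 genes, most exonic DRACH sites stood away from junctions, as they did over all coding genes. On isoforms with a complete coding sequence, 36 of 40 sites in the cerebellum (90.0%, interval 77.0 to 96.0) and 49 of 52 in the cerebrum (94.2%, interval 84.4 to 98.0) lay 100 nt or more from an exon junction, as did 338 of the 721 DRACH adenosines of these isoforms (46.9%). Over the coding genes with a site, the same held for 93.1% of listed DRACH adenosines in the cerebellum and 91.7% in the cerebrum, both inside the members' intervals, and for 62.8% of all DRACH adenosines. Of 272 DRACH adenosines in internal exons under 200 nt, 2 were listed in the cerebellum and 1 in the cerebrum, where the shares over coding genes were 0.137% and 0.450%. No site of the 5 genes lay in a 5′ UTR, and these held 15 DRACH adenosines. Over coding genes 2.05% and 3.65% of 5′ UTR DRACH adenosines were listed. Over these isoforms 40 of 721 DRACH adenosines were listed in the cerebellum (5.55%) and 52 in the cerebrum (7.21%). The shares over all coding genes, 4.22% and 7.20%, lay inside the intervals of 4.10 to 7.47 and 5.54 to 9.34. These isoforms leave out the far 3′ UTR of Lrp8. With it, on the longest coding isoforms, 8.99% were listed in the cerebellum (interval 7.174 to 11.2). In the cerebrum 10.4% were (interval 8.445 to 12.74). Both intervals lay above the shares of all coding genes, which were counted on complete isoforms. That isoform choice was made after seeing the data.

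By motif, adenosines followed by C and T were listed most often. On the longest coding isoform of each gene, with Lrp8-202 for Lrp8, 16.0% of 269 DRACH adenosines in 5-mers that end in T were listed in the cerebellum, 7.19% of 306 in 5-mers that end in A and 2.45% of 204 in 5-mers that end in C. In the cerebrum these shares were 17.8%, 8.17% and 3.92%. All coding genes with a site, on their longest complete isoform, had the same order. Their shares were 7.96%, 2.92% and 1.79% in the cerebellum and 13.1%, 5.21% and 3.31% in the cerebrum. The isoform rules differ, so the order alone is compared. None of the 53 adenosines in TAACA and TAACC was listed. Over all coding genes the former was listed at 0.601% in the cerebellum and 1.14% in the cerebrum. The latter was listed at 0.203% and 0.437%, so the lack of such sites does not set the members apart. GAACT was the 5-mer with the highest share in the members, with 10 and 11 of 45 listed, and GGACT, with 7 and 6 of 46 listed, was the one with the highest share over all coding genes, at 10.6% and 18.6%.

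Genes with site counts most like those of each member were sought over 20701 other coding genes, by the Euclidean distance of log2(count + 1) of DRACH sites in the coding sequence and in the 3′ UTR of complete isoforms in each library. Foxk1 and Sprn had the same 4 counts as Vldlr. Clasp1 was nearest to Dab1, at a distance of 0.244, and Slc1a3 to Fyn, at 0.170. For Reln 146 genes and for Lrp8 7 genes had the same counts. The counts of Lrp8 were 1 and 0 in the coding sequence and 2 and 2 in the 3′ UTR. They leave out the 30 and 29 DRACH sites of its far 3′ UTR, which is not on a complete isoform. These distances rest on 4 numbers a gene and describe the lists.

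Most genes of a wider Reelin pathway list were listed as well. Of 67 genes, which take in proteases and other ligands, receptor partners, kinases and adaptors downstream of DAB1, its ubiquitin ligase and the CDK5 kinase, 56 had a site in the cerebellum and 64 in the cerebrum. An exonic DRACH site was listed for 53 in the cerebellum (79.1%, interval 67.9 to 87.1) and for 62 in the cerebrum (92.5%, interval 83.7 to 96.8), above the 35.9% and 46.2% of all coding genes given above, for which expression in the brain was not considered. The median gene had 3 exonic DRACH sites in the cerebellum list and 6 in that of the cerebrum. Among the 64 genes with such a site, 49 had more in the cerebrum (76.6%, interval 64.9 to 85.3), and the 81.5% of all coding genes lay inside the interval.

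Among ligands and their proteases, Apob had no site in either library, Adamts2 had none in the cerebrum, and Adamts3, Pcsk6, Plat and Thbs1 had none in the cerebellum. Adamts3, which cleaves Reelin, had 7 exonic DRACH sites in the cerebrum. Among 15 receptor partners, Snx17 and Lrp2 had no site in the cerebellum, while Grin2b, an NMDA receptor subunit, had the most of the whole list, 49 in the cerebellum and 57 in the cerebrum. Among 36 kinases and adaptors, Ndel1, Nde1 and Arhgef2 had no site in the cerebellum. The adaptors Crk and Crkl, which bind phosphorylated DAB1, had 23 and 22 exonic DRACH sites in the cerebellum and 28 and 26 in the cerebrum, and Pik3r1, a regulatory subunit of PI3-kinase, had 23 and 27. All 5 genes of the turnover of DAB1 had such sites in both libraries, with 2 to 7 each in the cerebellum and 2 to 13 each in the cerebrum. Cdk5r1, which encodes the CDK5 activator p35, had 33 and 38.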

How the data were processed

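The deposited lists hold 1 position per line (chromosome, position, strand) for each library, as the authors made them. Per the study's methods, GLORI reads were mapped to mm10 and to a PWK version of it, sites were called with GLORI-tools, both sets were united, and sites above a minimum methylation rate and read count were kept, so the lists depend on expression and depth. The deposited unit is a genomic position, with no rate, count or depth. The overlap with m6A-seq peaks that the study used for its high-confidence sites was not applied.

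Positions were set against the GRCm38 sequence and GENCODE M21, which is not the release that the study names, with Python 3.11.15, pysam 0.24.0 and samtools 1.23.1. A site was placed on the longest complete coding isoform covering it, otherwise on coding isoforms without a 5′ end, on other exons or in introns. DRACH adenosines were counted on the longest complete isoform. Wilson intervals (95%) came from statsmodels 0.14.6. The gene models were tested on 200 isoforms, of which 200 had the sequence of the GENCODE transcripts, and 1000 of 1000 simulated positions were recovered.

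The members and gene lists were chosen with earlier results of these data known. The text names the 5 members, the genes of the wider list with no site in a library, the 5 of it with most exonic DRACH sites, and the most alike genes where at most 3 tied. Some genes that this rule names are not reported here. Alternatives were other isoforms, motifs, distances and site sets.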

Additional observations from a re-analysis of the deposited data

How the results depend on the processing

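No paired analysis was possible because each tissue has 1 library, and no replicate could be left out. Of 41 alternative values, 24 stayed within 1.5 times a count or inside the interval of a share, and 17 moved. With exonic sites alone, the members held 89 sites of the cerebellum list and 146 of the other, the DRACH share rose from 50.7% to 78.7% and from 30.6% to 55.5%, and the share of cerebellum sites also in the cerebrum went from 52.8% to 80.9%. With DRACH sites alone the counts were 73 and 106, the shared part of exonic DRACH sites was 85.7%, and the 3′ UTR share of sites on complete coding isoforms in the cerebrum went from 74.7% to 90.4%. With RRACH in place of DRACH the motif share was 42.4% and 24.9%. With a distance of 50 nt in place of 100 nt from a junction the share was 97.5% and 98.1%. Coding isoforms without a 5′ end, which add the far 3′ UTR of Lrp8 and were chosen after seeing the data, gave a 3′ UTR share of 86.2% and 82.6%, and 8.99% and 10.4% of DRACH adenosines listed. Leaving out intronic sites removes mainly those of Dab1, 50 of 55 and 173 of 200.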
